A study of Mus musculus with 26 samples.

Results

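A set of 9 genes of heme breakdown and cellular iron handling was followed in stressed NIH3T3 cells, a fibroblast line derived from mouse embryos. They were chosen by symbol, as 9 rows of the 20430 gene rows in the RNA tables and of the 19941 gene rows in the ribosome footprint tables: Hmox1, Blvrb, Fth1, Ftl1, Tfrc, Slc40a1, Slc11a2, Ireb2 and Aco1. PolyA-selected RNA was sequenced in 16 libraries in 8 groups, and ribosome footprints, the mRNA pieces that ribosomes protect, in 10 libraries in 5 groups, with 2 replicates in each group. A heat experiment (RNA only) held an untreated control, cells at 44 °C for 2 h and cells at 42 °C for 8 h. A second experiment (RNA and footprints) held an untreated control that both agents share, cells under oxidative stress by H2O2 for 2 h or 7 h, and cells under osmotic stress by KCl for 2 h or 7 h. No time is labelled for either control, and each serves both durations, so treatment time and time in culture cannot be told apart. The labels give no doses, name no genetic change, and describe every group as the same cell line. They do not say whether replicates were separate cultures, so the p-values measure only the spread between these libraries. Depth was 24441877 to 45244430 counts in genes per RNA library and 1460751 to 5168537 per footprint library, so low footprint levels are the least precise values here.

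Heme oxygenase 1 (Hmox1) opens the heme ring and frees its iron, and biliverdin reductase B (Blvrb) reduces biliverdin and flavins. Free iron is stored in ferritin, a shell of heavy (Fth1) and light (Ftl1) chains, enters cells through the transferrin receptor (Tfrc) and the metal transporter DMT1 (Slc11a2), and leaves through ferroportin (Slc40a1). The iron regulatory proteins IRP1 (Aco1) and IRP2 (Ireb2) bind a hairpin, the iron-responsive element, in these mRNAs when iron is scarce. Binding near the start of ferritin mRNA blocks its translation, and binding near the end of Tfrc mRNA protects it from decay; storage and uptake thus answer to the same proteins through different steps.

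In untreated cells ferritin was among the most abundant mRNAs but was sparsely covered by ribosomes. Tfrc RNA was less abundant, at rank 1522 of 20430 genes in the H2O2/KCl control, but densely covered. On the TPM scale, which divides by transcript length and so allows genes to be compared, the control of the H2O2/KCl experiment held Ftl1 RNA at 3608 TPM (mean, n = 2), rank 13 of 20430 genes, and Fth1 RNA at 1574 TPM, rank 80. The next levels were 137 TPM for Hmox1, 121 for Tfrc, 52.4 for Slc11a2, 48.1 for Aco1, 43.4 for Ireb2, 26.5 for Blvrb and 2.57 for Slc40a1. Footprint levels had another order, with Tfrc first at 389 TPM, Ftl1 at 372, Hmox1 at 272 and Fth1 at 247. Slc11a2 (58.4), Aco1 (41.5), Ireb2 (27.7), Blvrb (18.6) and Slc40a1 (0.225 TPM) followed. RNA of Fth1 stood at 13.0 ± 0.0914 times the Tfrc RNA level (SD, n = 2), and footprints of Fth1 at 0.639 ± 0.0670 times those of Tfrc. The 2 control footprint libraries differed for Ftl1, at 101 and 272 CPM (counts scaled to library size, after TMM scaling), so the order of Ftl1 and Tfrc in footprints did not differ beyond their spread.

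The ratio of footprint TPM to RNA TPM, set across tables that were normalized separately, describes how densely an mRNA is covered. In the control the ratio was 0.157 for Fth1 (rank 246 from the lowest of 9444 genes) and 0.103 for Ftl1 (rank 76), against a median of 0.652 over all ranked genes. For Tfrc it was 3.21, at the 98.0th percentile of the same genes, and for Hmox1 it was 1.99. Slc11a2 was at 1.11 (percentile 80.0 of the same genes) and Aco1 at 0.864 (percentile 67.2), while Blvrb at 0.702 and Ireb2 at 0.638 lay near the median. After 2 h of H2O2 the Fth1 ratio was 0.0600 (rank 18 from the lowest) and the Ftl1 ratio 0.0511 (rank 16), and after 7 h they were 0.0887 (rank 31) and 0.0635 (rank 15). At 7 h of KCl the Fth1 ratio was 0.292, above its control value, while the Ftl1 ratio was 0.0916. A ratio of this kind also carries differences in how each table handles length and coverage of a transcript, whose part was not tested. How reads shared with ferritin pseudogenes were split in each table is not stated, and that part was not tested either.

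**Figure D1:**
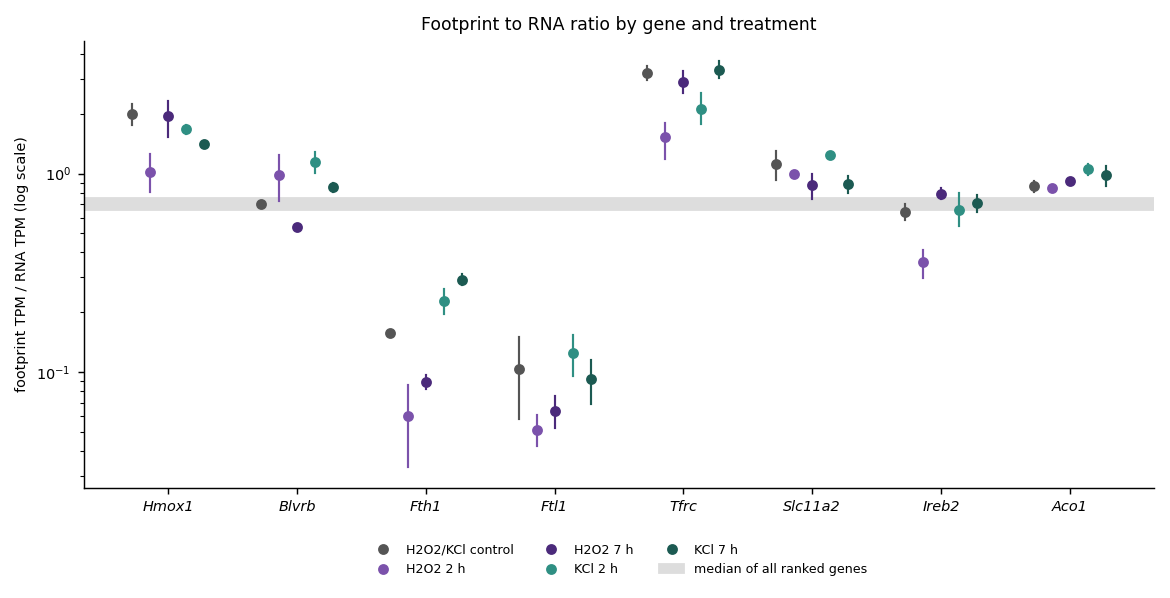
Footprint TPM divided by RNA TPM (log axis) for 8 genes in the 5 groups of the H2O2/KCl experiment; points are ratios of group means, bars join the ratios of same-numbered libraries, and the grey band spans the median of all ranked genes over the 5 groups. Fth1 and Ftl1 lie at 0.292 or less in every group and Tfrc at 1.53 or more.

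Stress moved the RNA of these genes in patterns that differed by agent. With H2O2, Hmox1 rose 9.60-fold within 2 h and ferritin followed only at 7 h. With KCl, ferroportin rose 5.57-fold at 7 h. At 42 °C Tfrc rose and ferroportin fell, as they also did at both times of H2O2. Tfrc rose at both times of KCl too, and heat was not tested against H2O2 or KCl. In RNA, 5 of 9 genes passed the test at 44 °C (4 higher, 1 lower), against 35.4% of all 12747 genes tested called higher and 35.7% called lower. At 42 °C, 3 were higher and 2 lower (31.7% and 31.9% of all genes). After 2 h of H2O2, 2 were higher and 2 lower (27.3% and 26.5% of 13256 genes), and after 7 h, 6 were higher and 3 lower (39.4% and 31.1%). After 2 h of KCl, 2 were higher and 1 lower (27.2% and 27.0%), and after 7 h, 5 were higher and 1 lower (37.2% and 31.6%). Most genes were called in each of these comparisons, so the counts are no result about these 9 genes, and the sizes below carry the description. The median log2 change over the 9 genes was 0.57 after 7 h of H2O2, against 0.08 over all genes, and between -0.07 and 0.19 in the other treatments. All tests named here are edgeR's quasi-likelihood F test, with p-values adjusted by Benjamini-Hochberg over all genes tested and a threshold of 0.05, and log2 changes are given with their standard error (SE). In bulk RNA, fewer cells of a kind and less RNA per cell cannot be told apart.

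**Figure D2:**
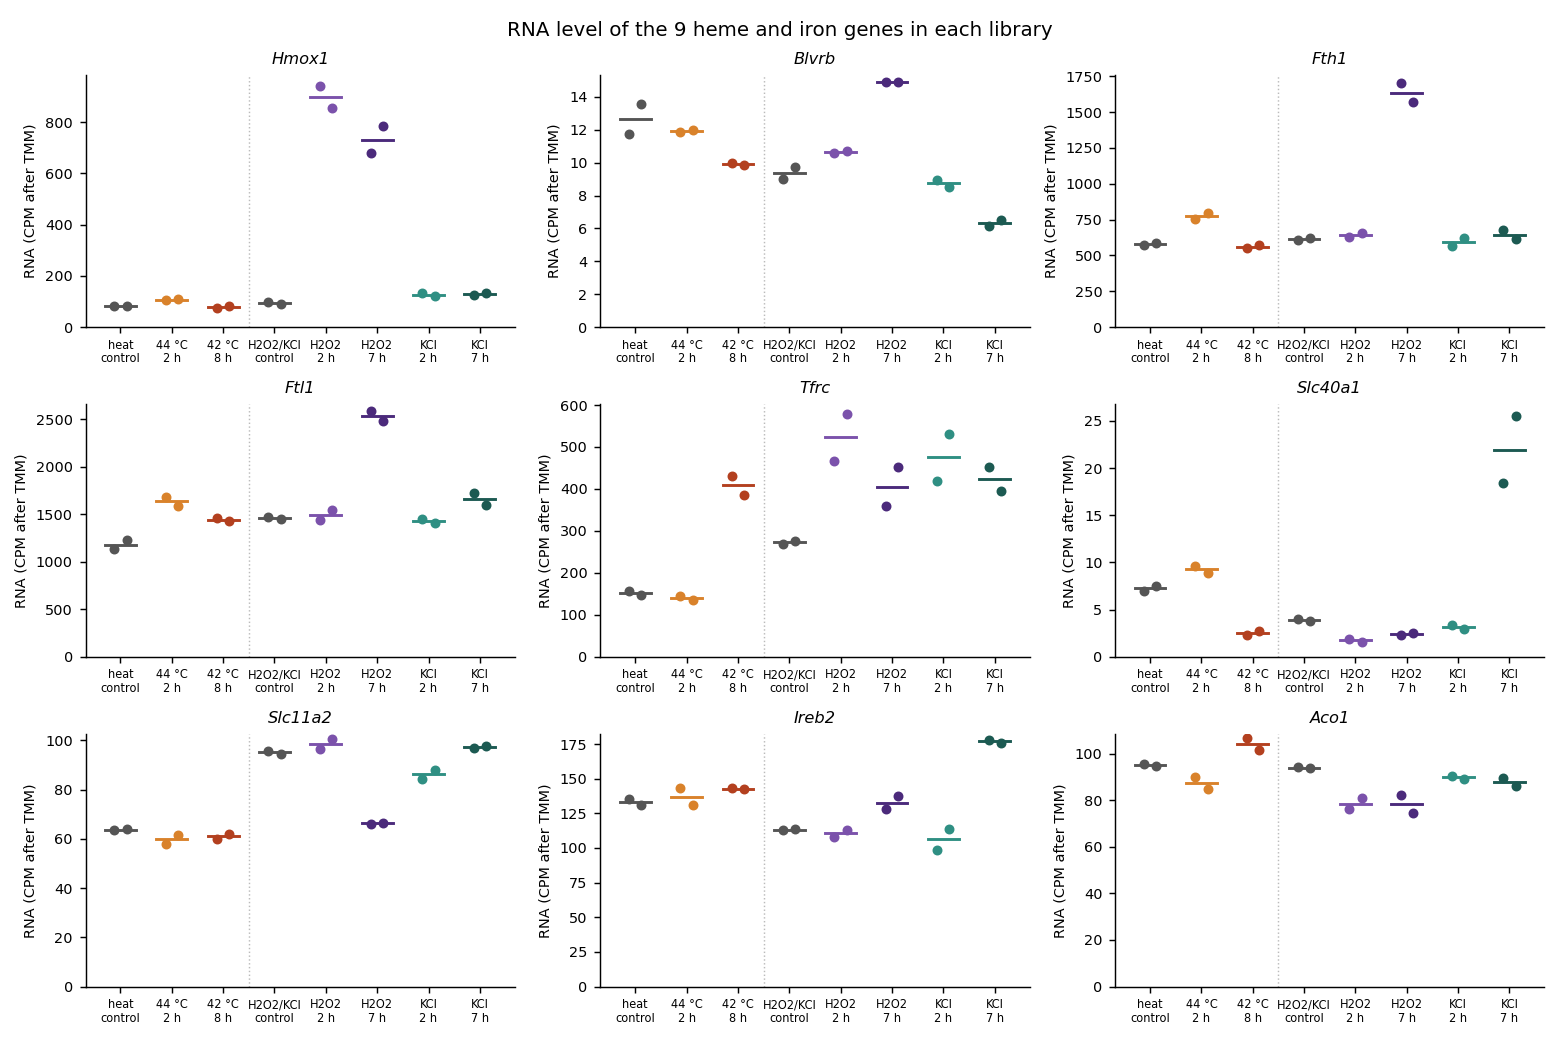
RNA level (CPM after TMM scaling) of each of the 9 genes in all 16 RNA libraries; points are libraries, horizontal lines are group means, and a dotted line separates the heat experiment from the H2O2/KCl experiment. Hmox1 stands at 678 to 943 CPM in the 4 H2O2 libraries and at 134 CPM or less in all others, while Fth1 and Ftl1 are highest after 7 h of H2O2.

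Hmox1 (chromosome 8, 75093618 to 75100593 in GRCm38, the assembly also called mm10) had 98.4 and 88.9 CPM of RNA in the control libraries, 943 and 857 after 2 h of H2O2 and 678 and 786 after 7 h. The H2O2 libraries did not overlap the controls, and those of 7 h lay below those of 2 h. The log2 change was 3.26 (SE 0.09, adjusted p = 4.35e-12) at 2 h and 2.97 (SE 0.09, adjusted p = 1.48e-12) at 7 h, and the direct contrast of 7 h against 2 h was -0.30 (SE 0.08, adjusted p = 0.00458). That difference missed the threshold without the first replicate of 7 h of H2O2 (log2 change -0.21, adjusted p = 0.0658). KCl gave 132 and 122 CPM at 2 h and 123 and 134 at 7 h, all above the controls, with log2 changes of 0.43 (SE 0.09, adjusted p = 0.000644) and 0.46 (SE 0.09, adjusted p = 0.000253). Set directly against KCl, H2O2 was higher by 2.83 at 2 h (SE 0.09, adjusted p = 2.50e-11) and by 2.51 at 7 h (SE 0.09, adjusted p = 4.74e-12). In the heat experiment Hmox1 RNA was 80.8 and 83.6 CPM in the control, 104 and 109 at 44 °C (log2 change 0.38, SE 0.05, adjusted p = 1.60e-05) and 72.3 and 80.4 at 42 °C, where the test was not passed (adjusted p = 0.0937).

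Hmox1 was also the member with the most footprints gained. Footprints were 205 and 251 CPM in the control, 966 and 1382 after 2 h of H2O2, and 1057 and 2026 after 7 h. All 4 H2O2 libraries lay above the controls, the times overlapped, and the 7 h libraries differed widely from each other. The log2 change was 2.37 at 2 h (SE 0.29, adjusted p = 0.00107) and 2.76 at 7 h (SE 0.29, adjusted p = 1.85e-05). Of 10545 genes tested in footprints, 1.14% were called higher at 2 h of H2O2 and 0.768% lower. Hmox1 was the single member called of 8 tested. Simulated counts for this comparison recovered 33% of changes of log2 size 1, so few calls do not mean that few genes changed. Translational efficiency, the change of footprints relative to the change of RNA, was -0.93 at 2 h for Hmox1 (SE 0.32) and missed the threshold (adjusted p = 0.0652), while DESeq2 put it just under (adjusted p = 0.0469). After KCl, footprints of Hmox1 were 261 and 237 CPM at 2 h and 195 and 229 at 7 h, both overlapping the control.

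Blvrb (chromosome 7, 27447978 to 27465981) was a low-abundance mRNA whose change came late and had opposite signs with the agents. Its RNA was 9.02 and 9.72 CPM in the control, 10.6 and 10.7 after 2 h of H2O2, and 14.9 and 14.9 after 7 h. KCl gave 8.97 and 8.54 CPM at 2 h and 6.14 and 6.49 at 7 h, below every control library. At 7 h the log2 change was 0.67 with H2O2 (SE 0.09, adjusted p = 6.88e-06) and -0.57 with KCl (SE 0.10, adjusted p = 0.000119), and the direct contrast of the agents was 1.24 (SE 0.10, adjusted p = 2.27e-08). At 42 °C Blvrb fell from 11.8 and 13.6 to 9.98 and 9.87 CPM (log2 change -0.35, SE 0.09, adjusted p = 0.00314), and at 44 °C the groups overlapped. Its footprints were few, at 7.58 and 9.07 CPM in the control and 22.0 and 11.1 after 2 h of H2O2, and no footprint or efficiency change passed the test.

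The ferritin chains rose together in RNA after 7 h of H2O2 and at 44 °C, and did not at 2 h of H2O2. Fth1 (chromosome 19, 9980600 to 9985111), whose product oxidizes iron for storage, had 610 and 622 CPM in the control, 630 and 656 after 2 h of H2O2, and 1704 and 1568 after 7 h. The 2 h libraries lay just above the controls and the test was not passed (adjusted p = 0.479). The rise at 7 h was 2.66-fold (log2 change 1.41, SE 0.07, adjusted p = 3.03e-10), and 7 h exceeded 2 h by 1.35 (SE 0.07, adjusted p = 5.45e-10). Ftl1 (chromosome 7, 45457944 to 45459886), the chain that helps form the mineral core, had 1471 and 1446 CPM in the control, 1439 and 1550 after 2 h and 2585 and 2484 after 7 h. Its change at 7 h was 1.74-fold (log2 change 0.80, SE 0.06, adjusted p = 4.26e-08); the difference between the 2 genes was not tested.

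KCl left Fth1 RNA at 566 and 623 CPM after 2 h and 675 and 612 after 7 h, overlapping the control both times. Ftl1 RNA was 1727 and 1593 CPM after 7 h of KCl (log2 change 0.19, SE 0.06, adjusted p = 0.0158), a call that was lost without the second control replicate (adjusted p = 0.0718) or the first replicate of 7 h of KCl (adjusted p = 0.148). On the TPM scale the same comparison gave 0.09 (limma on log2(TPM + 1), adjusted p = 0.318). H2O2 exceeded KCl at 7 h by 1.35 for Fth1 (SE 0.07, adjusted p = 3.27e-10) and by 0.61 for Ftl1 (SE 0.06, adjusted p = 4.97e-07). At 44 °C both chains were higher than in the heat control: Fth1 went from 569 and 589 to 752 and 796 CPM (log2 change 0.42, SE 0.04, adjusted p = 7.98e-07). Ftl1 went from 1135 and 1227 to 1685 and 1584 CPM (log2 change 0.47, SE 0.05, adjusted p = 6.48e-07). At 42 °C Fth1 overlapped its control, and Ftl1 was at 1460 and 1426 CPM (log2 change 0.29, SE 0.05, adjusted p = 0.000101). The Ftl1 value at 42 °C depended on the scale, as TPM gave 0.10 (limma, adjusted p = 0.161) a scale on which the median change of all genes was -0.16.

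The promoters of the 2 ferritin genes, whose RNA rose together, are shown beside that of Tfrc. RefSeq windows of GRCm38.p6 were given for 6 of the 9 genes (9 windows of 250 bases before to 50 after an annotated start); Hmox1, Slc40a1 and Slc11a2 had none. The 250 bases before each start were searched on both strands for CCAAT, the box bound by NF-Y, and for TGACNNNGC, the core of the antioxidant response element bound by NRF2 or BACH1 with small MAF proteins. CCAAT lay 2 times in the Ftl1 window, 1 time in a window of Fth1 and 1 time in that of Tfrc, and 33.8% of all 32851 windows hold it. TGACNNNGC was in none of the 9 windows, and 10.2% of all windows hold it. At that share, absence from 9 windows is no result about these genes, and sites farther from the starts were not searched. The stretches below run 5′ to 3′ on the strand of the gene, with CCAAT or its reverse complement ATTGG in capitals. They lie at chr19:9982619-9982645 (+) for Fth1, chr7:45459896-45459984 (-) for Ftl1 and chr16:32608752-32608796 (+) for Tfrc.
Fth1: cggcgcggcccgctgcgctgATTGGcc
Ftl1: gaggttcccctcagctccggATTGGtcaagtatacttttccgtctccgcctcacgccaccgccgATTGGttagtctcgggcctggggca
Tfrc: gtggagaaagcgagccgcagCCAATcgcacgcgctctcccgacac
The Fth1 window (9982396 to 9982695) belongs to an annotated start inside the span given for the gene above, not to its outermost start, whose window holds no CCAAT. The boxes end 3 bases before that inner start in Fth1, 74 and 30 before it in Ftl1, and 120 before it in Tfrc. A match describes these letters and shows no binding.

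Tfrc (chromosome 16, 32608896 to 32632794), the receptor that takes up transferrin iron, rose in RNA in 5 of 6 treatments. Its RNA was 269 and 277 CPM in the control, 467 and 580 after 2 h of H2O2, 359 and 452 after 7 h, 420 and 530 after 2 h of KCl and 451 and 395 after 7 h. All 8 treated libraries lay above the controls, and the agents overlapped each other at both times. The log2 changes were 0.94 (SE 0.13, adjusted p = 2.81e-05) and 0.57 (SE 0.13, adjusted p = 0.00107) with H2O2. With KCl they were 0.80 (SE 0.13, adjusted p = 0.000108) and 0.63 (SE 0.13, adjusted p = 0.000481). The decline from 2 h to 7 h of H2O2 was -0.37 (SE 0.13, adjusted p = 0.0170), and it missed the threshold without the second 2 h library (-0.21, adjusted p = 0.210) or the first 7 h library (-0.23, adjusted p = 0.162). At 42 °C Tfrc RNA went from 158 and 147 to 431 and 387 CPM, a 2.68-fold rise (log2 change 1.42, SE 0.06, adjusted p = 8.77e-11). At 44 °C it was 145 and 135 CPM, just below its control (log2 change -0.13, SE 0.06, adjusted p = 0.0612).

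Slc11a2 (chromosome 15, 100387898 to 100424209), which carries ferrous iron out of endosomes, moved apart from Tfrc. It had 95.7 and 94.6 CPM in the control, 96.4 and 100 after 2 h of H2O2 and 66.2 and 66.6 after 7 h, the lowest of that experiment. The change at 7 h was -0.52 (SE 0.06, adjusted p = 1.12e-06), and the contrast of 7 h against 2 h was -0.57 (SE 0.06, adjusted p = 4.66e-07). Footprints moved the same way, from 75.3 and 108 CPM in the control to 52.1 and 45.8 after 7 h (log2 change -0.90, SE 0.21, adjusted p = 0.00699). The footprint call was lost without the second control footprint replicate (-0.63, adjusted p = 0.0968) or the second 7 h replicate (-0.85, adjusted p = 0.0630). At 7 h of H2O2 17.2% of the genes tested in footprints were called higher and 10.6% lower, and the 2 members called were Hmox1 and Slc11a2. With KCl, Slc11a2 RNA was 84.4 and 87.9 CPM at 2 h (log2 change -0.14, SE 0.06, adjusted p = 0.0411) and 97.0 and 97.8 at 7 h. The 2 h call was lost under DESeq2 (adjusted p = 0.0772) and without either control replicate or the first KCl replicate, where the adjusted p ranged from 0.0942 to 0.148. In heat its libraries lay between 57.8 and 64.0 CPM, and neither temperature passed the test.

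Ferroportin, Slc40a1 (chromosome 1, 45908070 to 45926532), the only known iron exporter of mammalian cells, was the least abundant member and had the widest swings. Its RNA was 4.05 and 3.77 CPM in the control, 1.9 and 1.6 after 2 h of H2O2, 2.34 and 2.49 after 7 h, 3.42 and 2.90 after 2 h of KCl, and 18.4 and 25.6 after 7 h of KCl. Every H2O2 library lay below the controls and both 7 h KCl libraries far above. The log2 change was -1.17 (SE 0.20, adjusted p = 0.000226) at 2 h and -0.70 (SE 0.19, adjusted p = 0.00471) at 7 h of H2O2. For KCl it was -0.31 at 2 h (SE 0.19, adjusted p = 0.178) and 2.48 at 7 h (SE 0.15, adjusted p = 4.63e-09), a gap of 2.79 between the times (SE 0.17, adjusted p = 3.71e-09). The direct contrast of H2O2 against KCl was -3.18 at 7 h (SE 0.17, adjusted p = 3.67e-10). In heat Slc40a1 went from 7.01 and 7.51 CPM in the control to 9.59 and 8.92 at 44 °C (log2 change 0.35, SE 0.10, adjusted p = 0.00642) and to 2.29 and 2.75 at 42 °C (log2 change -1.53, SE 0.13, adjusted p = 1.59e-07). The 44 °C call was lost under DESeq2 (adjusted p = 0.0581) and without the first heat control replicate (adjusted p = 0.0632).

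Footprints on Slc40a1 were too few for a test. There were 1 and 2 counts in the control libraries, 0 and 0 after 2 h of H2O2, 1 and 1 after 7 h, 2 and 2 after 2 h of KCl, and 7 and 20 after 7 h of KCl. The libraries of 7 h of KCl, which also had the most Slc40a1 RNA, held the highest counts. A count of 0 allows up to 3 counts, or 2.05 and 0.580 CPM in the 2 libraries of 2 h of H2O2, so no difference from the control was detectable there. Such limits cover counting error only.

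Of the 2 iron sensors, Aco1 RNA was lower with H2O2 and Ireb2 RNA was higher after 7 h of KCl. Aco1 (chromosome 4, 40143265 to 40199009), an enzyme of the cytosol that becomes IRP1 when it loses its iron-sulfur cluster, had 94.5 and 93.8 CPM in the control, 76.3 and 81.0 after 2 h of H2O2 and 82.1 and 74.6 after 7 h. All 4 H2O2 libraries were below the controls, and the log2 change was -0.26 at 2 h (SE 0.06, adjusted p = 0.00279) and -0.26 at 7 h (SE 0.06, adjusted p = 0.00162). KCl libraries held 90.5 and 89.2 CPM at 2 h and 89.4 and 86.3 at 7 h, slightly below the controls, without passing the test. At 44 °C the value was -0.13 (SE 0.05, adjusted p = 0.0243) and at 42 °C 0.13 (SE 0.05, adjusted p = 0.0213). Neither heat call was stable: the 42 °C value was -0.06 on the TPM scale (limma, adjusted p = 0.367), and the 44 °C call was lost under DESeq2 (adjusted p = 0.0726).

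Ireb2 (chromosome 9, 54862658 to 54912534), whose product IRP2 is degraded when iron is plentiful, rose after 7 h of KCl. Its RNA was 113 and 114 CPM in the control, 178 and 176 after 7 h of KCl (log2 change 0.65, SE 0.07, adjusted p = 1.34e-06), and 98.6 and 114 after 2 h. With H2O2 it was 108 and 113 CPM at 2 h and 128 and 137 at 7 h (log2 change 0.23, SE 0.07, adjusted p = 0.00890). The H2O2 call was lost without either of the 7 h libraries (adjusted p = 0.0571 and 0.0928) and on the TPM scale (limma, adjusted p = 0.122). Heat did not move it past the threshold. The direct contrast of H2O2 against KCl at 7 h was -0.42 (SE 0.07, adjusted p = 6.56e-05).

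The question set for ferritin and the transferrin receptor was how RNA and translation compare. After 2 h of H2O2, with ferritin RNA close to its control, Fth1 footprints were 27.3 and 74.5 CPM against 117 and 127 in the control. Both libraries were lower, and the footprint test alone was missed by edgeR (log2 change -1.18, SE 0.31, adjusted p = 0.0696) and passed by DESeq2 (-1.19, adjusted p = 0.00751). Relative to RNA the change was -1.23 (SE 0.32, adjusted p = 0.0213), a 2.35-fold fall in translational efficiency. Footprints and RNA were each scaled within their own kind of library, so efficiency changes here are relative to the typical gene. A change in translation shared by most mRNAs would not show. Tfrc had 604 and 1150 footprint CPM against 949 and 884 in the control, 1 library below and 1 above, with a log2 change of -0.06 (SE 0.24, adjusted p = 0.939). Relative to its RNA, which was higher than in the control, the Tfrc change was -1.03 (SE 0.30, adjusted p = 0.0340), a 2.04-fold fall in efficiency. Ftl1 had 111 and 84.8 footprint CPM, inside or below the wide control range of 101 to 272, and its efficiency changed by -1.02 with a larger error (SE 0.46, adjusted p = 0.159). Ireb2 footprints were 33.3 and 55.5 CPM against 87.3 and 78.3 (log2 change -0.85, SE 0.23, adjusted p = 0.0810), with an efficiency change of -0.81 (SE 0.23, adjusted p = 0.0274). Thus Fth1 and Tfrc both fell in efficiency at 2 h: Fth1 had fewer footprints on an RNA near its control level, and Tfrc had footprints around the control level on a larger RNA.

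Of 8 members tested at 2 h of H2O2, 3 were called lower and none higher (DESeq2 called 4, Hmox1 among them), against 7.46% of 10480 genes called lower and 3.98% called higher. The median efficiency change of the 8 was -0.87, and that of all genes -0.01. The footprint libraries of 2 h of H2O2 differed in depth: the first, thin replicate held 1460751 counts, the second 5168537. Without the thin library Fth1 was at -0.82 (adjusted p = 0.0114), Tfrc at -0.65 (adjusted p = 0.0784) and Ireb2 at -0.59 (adjusted p = 0.0613). Without the deeper library they were at -2.27 (adjusted p = 1.89e-05), -1.59 (adjusted p = 0.000314) and -1.33 (adjusted p = 0.00134). The direction of all 3 held without either library. The calls also depended on RNA libraries: without the first or second control replicate, or the second 2 h replicate, Fth1 had adjusted p of 0.0657, 0.0570 and 0.0644, and neither Tfrc nor Ireb2 was called. Both of these were lost, too, without the first control footprint replicate (adjusted p = 0.0801 and 0.0840). Fitted on only the groups compared, none was called (adjusted p = 0.115 for Fth1, 0.120 for Tfrc and 0.0957 for Ireb2).

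After 7 h of H2O2 ferritin RNA was high and its footprint values were not higher to the same degree. Fth1 footprints were 148 and 172 CPM, both above the control (log2 change 0.39, SE 0.30, adjusted p = 0.359), against the RNA change of 1.41. The efficiency change was -1.02 (SE 0.31), with an adjusted p of 0.0503, at the edge of the threshold. Of 16 alternative fits only 5 called it, and the values over the 16 ran from -1.13 to -0.83. DESeq2 (0.0248), RLE factors (0.0487), no filter on low counts (0.0491), voom (0.0118) and only these groups (0.00562) put the adjusted p below 0.05. Leaving out any 1 library put it between 0.0653 and 0.158. Ftl1 had 139 and 209 footprint CPM, within the control range, and an efficiency change of -0.90 (SE 0.45, adjusted p = 0.239). That value was -1.45 without the first control footprint replicate (adjusted p = 0.0164) and 0.01 without the second (adjusted p = 0.994), so it rests on which control library is kept. Tfrc footprints were 1038 and 1104 CPM, above the controls (log2 change 0.22, SE 0.24, adjusted p = 0.534), and its efficiency changed by -0.34 (SE 0.30, adjusted p = 0.529). No member was called at 7 h, where 4.69% of all genes were called higher and 4.57% lower. At an unadjusted p under 0.05 in the same edgeR fit there was 1 member, Fth1, and DESeq2 called 1, also Fth1. Between 2 h and 7 h of H2O2, Ireb2 was the single member called (0.91, SE 0.23, adjusted p = 0.0247; lost without the second 2 h RNA replicate, the first 7 h RNA replicate or the second 7 h footprint replicate, at adjusted p of 0.0728, 0.0873 and 0.0733), with 7.20% of all genes called in either direction.

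With KCl the ferritin heavy chain had values of the other sign. Fth1 footprints were 174 and 153 CPM at 2 h and 220 and 231 at 7 h, all above the control libraries, on an RNA that overlapped its control. The footprint change at 7 h was 0.89 (SE 0.30, adjusted p = 0.0509) and the efficiency changes were 0.47 (SE 0.31, adjusted p = 0.364) at 2 h and 0.85 (SE 0.31, adjusted p = 0.121) at 7 h, none of them called. Tfrc footprints were 1041 and 1001 CPM at 2 h and 1347 and 1467 at 7 h (log2 change at 7 h 0.62, SE 0.24, adjusted p = 0.0889), with efficiency changes of -0.65 (SE 0.30, adjusted p = 0.166) and 0.02 (SE 0.30, adjusted p = 0.992). Ftl1 efficiency changed by 0.20 (SE 0.45, adjusted p = 0.830) and -0.22 (SE 0.45, adjusted p = 0.838). Ireb2 footprints at 7 h of KCl were 135 and 122 CPM (log2 change 0.63, SE 0.22, adjusted p = 0.0600), beside an RNA change of 0.65. No member was called in footprints or efficiency with KCl by edgeR. At an unadjusted p under 0.05 there were 0 of 8 in footprints at 2 h and 3 at 7 h (Fth1, Tfrc and Ireb2, all higher), and in efficiency 1 at 2 h (Tfrc, lower) and 1 at 7 h (Fth1, higher); DESeq2 called 1 of these, Fth1 footprints at 7 h (adjusted p = 0.0211). In footprints at 2 h the called shares of all genes were 1.79% higher and 5.06% lower, and at 7 h 10.5% and 9.83%. In efficiency they were 3.58% and 9.18% at 2 h and 1.69% and 3.88% at 7 h. Between 7 h and 2 h of KCl no member's efficiency was called, against 6.84% of all genes; 1 had an unadjusted p under 0.05 (Tfrc, higher), and DESeq2 called 0.

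The agents differed for Fth1 when set directly against each other, which leaves the shared control out. Fth1 efficiency was lower with H2O2 than with KCl, with a log2 difference of -1.70 at 2 h (SE 0.32, adjusted p = 0.00629), or 3.24-fold, and of -1.87 at 7 h (SE 0.31, adjusted p = 0.00144), or 3.66-fold. It was the single member called at each time by edgeR, against 4.90% of all genes at 2 h and 12.1% at 7 h. The 7 h difference held in each of 16 alternative fits, with values from -1.99 to -1.72. The 16 include the fit with ferritin copies summed, which could hardly differ from the main fit. The 2 h difference ranged from -2.74 (without the deeper 2 h footprint library of H2O2) to -1.28 (without the thin one), and lost its call in 1 of 16, the fit of only these groups (adjusted p = 0.0897). Tfrc efficiency differed between the agents by -0.38 (SE 0.30, adjusted p = 0.516) at 2 h and -0.36 (SE 0.30, adjusted p = 0.478) at 7 h. For Ftl1 the values were -1.22 (SE 0.46, adjusted p = 0.137) and -0.68 (SE 0.45, adjusted p = 0.362). In RNA, 7 of 9 members differed between 7 h and 2 h of H2O2 (73.4% of all genes) and 5 between 7 h and 2 h of KCl (68.8%). Between the agents, 5 differed at 2 h (51.3%) and 8 at 7 h (78.4%).

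**Figure D3:**
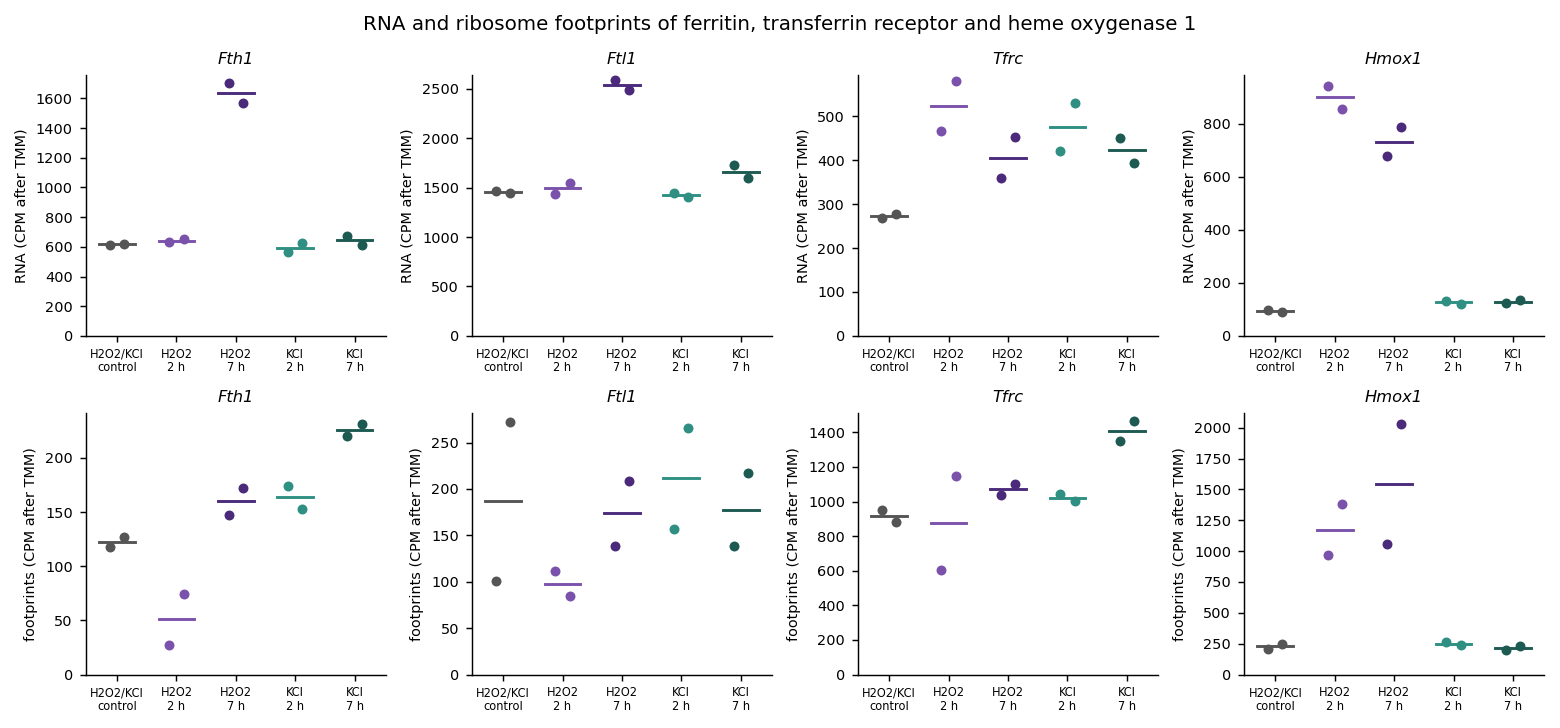
RNA (upper row) and footprint (lower row) levels in CPM after TMM scaling for Fth1, Ftl1, Tfrc and Hmox1 in the 5 groups of the H2O2/KCl experiment; points are libraries and lines are group means. Fth1 RNA peaks after 7 h of H2O2 while its footprints are highest after 7 h of KCl, at 220 and 231 CPM.

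**Figure D4:**
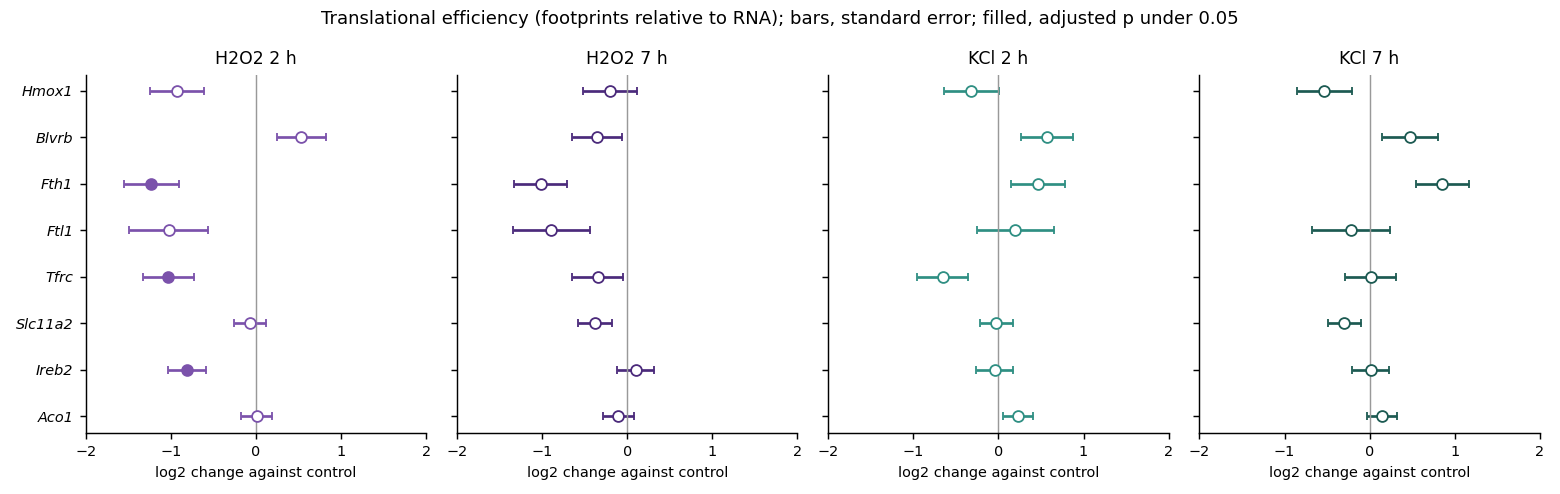
Log2 change in translational efficiency against the control (x axis) for 8 genes in the 4 treatments; bars are standard errors, filled points have an adjusted p under 0.05 and open points do not. The filled points are Fth1, Tfrc and Ireb2 after 2 h of H2O2, at -1.23, -1.03 and -0.81.

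Genes of the wider pathway, among them genes followed above, were counted by list, with the largest called gene of a list named. The lists are short and none was tested as a set, so their counts are description only. Mouse mRNAs known to carry an iron-responsive element near the start (6 listed, 4 of them tested in efficiency) had a median efficiency change of -0.93 at 2 h of H2O2, with 1 called lower, Fth1. Those with one near the end (3 listed and tested) had a median of -0.95, with 1 called lower, Tfrc, against a median of -0.01 over all genes. With KCl at 7 h the medians were 0.57 and 0.02, the latter being the Tfrc value itself. Fth1 and Ftl1 are among the 4 genes tested, and Tfrc and Slc11a2 among the 3. The medians therefore partly restate values given above and are no separate result about mRNAs with this element. The genes of a list also differed, as Slc11a2 efficiency changed by only -0.07 at 2 h of H2O2 (SE 0.19, adjusted p = 0.849).

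In heme synthesis (10 of 11 listed genes tested), 5 were called higher and 5 lower in RNA after 7 h of H2O2, against 39.4% and 31.1% of all genes. The largest change was in Alas1, which makes the first committed step of heme synthesis, at 1.51 in RNA (SE 0.06, adjusted p = 3.00e-11) and 2.22 in footprints (SE 0.22, adjusted p = 9.47e-06). With KCl for 7 h, 6 of the 10 were lower and 1 higher, against 31.6% and 37.2% of all genes. In heme breakdown and transport (10 of 12 tested), 4 rose and 2 fell after 2 h of H2O2 (27.3% and 26.5% of all genes) and 3 rose and 4 fell after 7 h (39.4% and 31.1%), with Hmox1 the largest each time. With 7 h of KCl 5 rose and 3 fell (37.2% and 31.6%), led by Abcc5 at 1.16 (SE 0.07, adjusted p = 2.53e-09). The counts of heme breakdown and transport are near those shares and are no result about the list.

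Among 17 listed iron uptake genes, 14 were tested in RNA of the H2O2/KCl experiment. In H2O2 at 7 h 7 rose and 4 fell (39.4% and 31.1% of all genes), with a median of 0.25 against 0.08 over all genes. Steap3, the reductase that readies endosomal iron for transport, led in footprints at 7 h of H2O2 at 2.40 (SE 0.23, adjusted p = 7.03e-06) and in efficiency at 1.33 (SE 0.22, adjusted p = 0.00135). In KCl at 7 h 6 rose and 3 fell (37.2% and 31.6%), and the largest change was in Scara5, a ferritin receptor, at -3.93 (SE 0.48, adjusted p = 5.46e-06). The RNA counts of uptake genes at 7 h lie near the shares of all genes and are no result about the list. Scara5 also led at 42 °C, at -2.47 (SE 0.38, adjusted p = 6.47e-05), where 3 uptake genes rose and 7 fell of 13 tested (31.7% and 31.9% of all genes). Of the storage, export and chaperone genes (7 of 11 tested), 5 rose after 7 h of KCl (37.2% of all genes), led by Slc40a1, and 2 did not pass the test.

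For iron sensing (9 of 10 listed genes tested), 4 rose and 1 fell after 7 h of H2O2 (39.4% and 31.1% of all genes), led by Glrx3 at 1.14 (SE 0.06, adjusted p = 6.91e-10). After KCl for 7 h 4 rose and 2 fell (37.2% and 31.6%), led by Hif1a at 1.85 (SE 0.08, adjusted p = 3.15e-10). With only 9 genes tested, these counts are no result about the iron sensing list. Of 24 iron-sulfur cluster genes tested, 3 were called higher and 11 lower at 2 h of H2O2 (27.3% and 26.5% of all genes), and 3 higher and 10 lower at 2 h of KCl (27.2% and 27.0%). At 44 °C 5 were higher and 11 lower (35.4% and 35.7% of all genes), and at 42 °C 12 were higher and 2 lower (31.7% and 31.9%). Fdxr, which passes electrons to ferredoxin, was the largest after 7 h of H2O2 at 2.47 (SE 0.09, adjusted p = 1.04e-11). The 6 genes of BACH1 and NRF2 control, the factors known for repressing and activating Hmox1 and ferritin, were called in RNA at every time of H2O2 and KCl. After 2 h of H2O2 5 rose and 1 fell (27.3% and 26.5% of all genes), led by Maff at 2.57 (SE 0.08, adjusted p = 1.55e-11), and after 2 h of KCl also 5 and 1 (27.2% and 27.0%), led by Maff at 2.37 (SE 0.08, adjusted p = 6.52e-11). At 7 h of H2O2 4 rose and 2 fell (39.4% and 31.1%), led by Mafk at 2.06 (SE 0.08, adjusted p = 3.51e-11).

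By pattern over the 12 stress RNA libraries (log2 CPM less the mean of the own control, 9333 genes compared), the genes most like Hmox1 were Ndrg1 (Pearson r = 0.993), Slc3a2 (0.984) and Wipi2 (0.984). For Fth1 they were Tmem184c (0.992), Pald1 (0.986) and Msh6 (0.986), and for Tfrc Abce1 (0.989), Myef2 (0.980) and Zmym4 (0.972). These are descriptions over libraries that share their controls and fall into groups.

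The cells carried fibroblast markers in every group, with 9 of 10 above 1 TPM (8 at 42 °C) and a summed level of 4149 to 11280 TPM. That sum was 4149 and 4161 TPM after 7 h of H2O2, where ferritin RNA was highest, against 9170 and 9243 in its control. Of 8 macrophage markers, cells that recycle heme iron, 2 were above 1 TPM after 7 h of H2O2, with a summed level of 101 and 104 TPM against 18.4 and 20.6 in the control. The rise lay in Cd14 (56.1 and 61.2 TPM) and Cd68 (42.6 and 44.7 TPM), whereas the defining Adgre1, Cd163 and Marco were at 0 in every library and Ptprc reached at most 0.05 TPM. The part of these changes in the results was not tested. After 7 h of KCl, where Slc40a1 RNA was highest, Csf1r stood at 15.4 and 16.1 TPM, against at most 0.0600 in the control. Cd14 was at 14.7 and 15.3 TPM there, against 8.68 and 10.6, while Cd68 was lower, at 5.32 and 5.62 against 9.59 and 9.98. Any link of these markers to Slc40a1 was not tested. Erythroid markers summed to at most 4.36 TPM and hepatocyte markers to at most 3.33 TPM.

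Transcription past the end of a gene can run into its neighbour, the subject of the study. The authors deposited, for 6399 pairs of neighbours, calls of transcripts downstream of genes (DoGs) and of read-in to the next gene, and a read-in estimate, whose formula was not stated. Of the 9 genes, 6 occur in 8 of these pairs, and in 1 pair, Bax upstream of Ftl1, read-in was called. Its DoG was called in 16 of 16 RNA libraries and its read-in in 13, namely all 12 stress libraries and 1 of the 2 H2O2/KCl controls. The estimate was 0.000600 and 0.000475 in the H2O2/KCl controls and 0.000511 and 0.000622 in the heat controls. It was highest after 2 h of KCl, at 0.0160 and 0.0178, then 0.00661 and 0.00688 after 2 h of H2O2, 0.00439 and 0.00640 at 42 °C, 0.00305 and 0.00489 after 7 h of KCl and 0.00314 and 0.00392 at 44 °C. After 7 h of H2O2, where Ftl1 RNA was highest, it was 0.000774 and 0.00100. All stress libraries lay above all controls, and the order over treatments did not follow that of Ftl1 RNA. The other 7 pairs had DoG calls in 1 to 7 libraries and no read-in call.

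**Figure D5:**
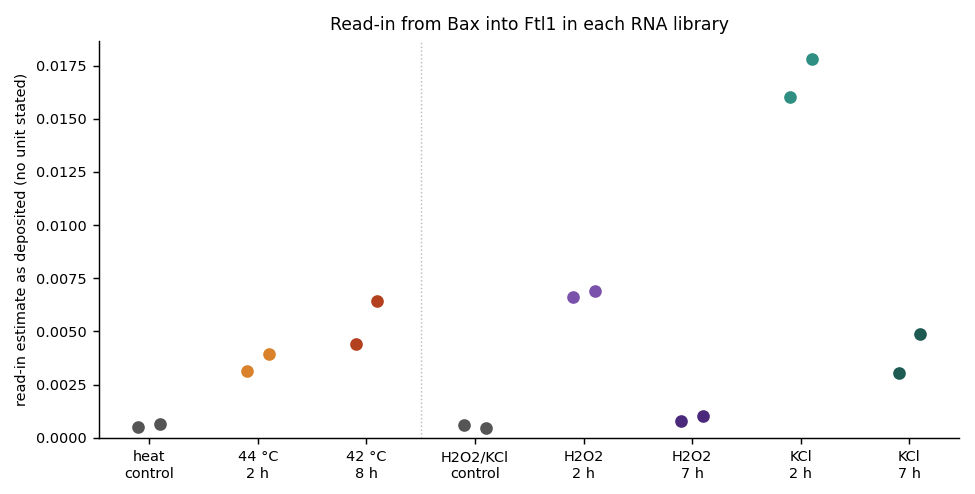
Read-in estimate from Bax into Ftl1 as deposited by the authors (y axis, no unit stated) in the 16 RNA libraries by group; each point is a library and the dotted line separates the experiments. The libraries of 2 h of KCl stand at 0.0160 and 0.0178, and the 4 controls at 0.000622 or less.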

How the data were processed

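PolyA-selected RNA (16 libraries, NEB E7760 kit) and ribosome footprints (10 libraries) of NIH3T3 cells were measured, per the labels' protocols. The submitters' processing notes name STAR, RSEM and Bowtie and the build mm10, without versions, roles or annotation. Per the file headers, the authors deposited RSEM expected counts per gene (whole as deposited) and TPM, which divides by transcript length; how reads shared by near-identical copies such as ferritin pseudogenes were split is not stated. For the read-in estimate, the authors' deposited file states no formula. Of the deposited columns, 12 match no labelled library and were not used.

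Groups follow the labels. Expected counts were tested with edgeR 4.0.16 (R 4.3.3; quasi-likelihood F test fitted across all genes, TMM factors, filterByExpr, Benjamini-Hochberg adjustment over all genes tested, threshold 0.05), in the heat and the H2O2/KCl experiment separately. Each fit held all groups of its experiment, which share the estimate of spread. Translational efficiency was the interaction of treatment and library kind in 1 model of RNA and footprints, with TMM factors computed within each kind. These factors scale out a change shared by most mRNAs. SE is the size of the log2 change divided by the square root of F. CPM values use TMM factors, log CPM a prior count of 2, and ratios of TPM were ranked over genes with at least 50 RNA and 10 footprint counts. Totals ran from 24441877 to 45244430 counts (RNA) and from 1460751 to 5168537 (footprints). No replicates were identical (chi-square per gene 3.24 to 12.5). An exact two-sided permutation test of 2 against 2 libraries cannot go below p = 0.333, so single values rest on the fits across genes.

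The fits were tested on simulated counts with 200 changed genes. For footprints at 2 h of H2O2 (10545 genes), 33% of changes of log2 size 1 and 91% of size 2 were recovered, with 4.62% false calls; for efficiency (10480 genes) the shares were 59%, 92% and 6.79%. In RNA they were 88%, 97% and 8.87% at 2 h of H2O2 (13256 genes tested) and 90%, 97% and 6.97% at 44 °C (12747 genes tested).

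Alternatives were DESeq2 1.42.0, RLE factors, no filter, limma 3.58.1 on log2(TPM + 1), only the groups compared, a replicate block, leaving out each replicate, voom with weights by library kind, and ferritin copies summed. All 9 genes were examined in every comparison where their counts allowed a test, and 94 uncalled results are not printed. Lists of heme synthesis, heme breakdown and transport, iron uptake, iron storage, export and chaperones, iron sensing, iron-sulfur cluster assembly, iron-responsive element mRNAs and BACH1 and NRF2 regulators are given as counts, naming a called gene where it had the largest change of its list; 1 such gene is not reported here. Genes of like pattern are the 3 with the highest Pearson r among genes with a mean log2 CPM of at least 3. The 9 genes, the lists and the tests were chosen with earlier results of these data known. The rule that picks time contrasts for a closer look was widened after values were seen. Gene positions and promoter windows are from RefSeq, GRCm38.p6.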

Additional observations from a re-analysis of the deposited data

Results flagged for a closer look

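For 13 results the level at 7 h differed from that at 2 h of the same agent by the direct contrast (edgeR's quasi-likelihood test, Benjamini-Hochberg adjusted over all genes). A narrower rule, that 2 h and 7 h both be called against the control in opposite directions, was set first and picks none of them; it was widened after the values were seen. In RNA 73.4% of all genes passed this contrast for H2O2 and 68.8% for KCl, and in efficiency 7.20% for H2O2, so a call in RNA is the usual case.

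With H2O2, both ferritin chains were higher at 7 h than at 2 h, Fth1 by 1.35 on the log2 scale (SE 0.07, adjusted p = 5.45e-10) and Ftl1 by 0.76 (SE 0.06, adjusted p = 6.97e-08). Blvrb (0.49, adjusted p = 0.000158) and Ireb2 (0.26, adjusted p = 0.00357) were also higher at 7 h. Hmox1 (-0.30, adjusted p = 0.00458), Tfrc (-0.37, adjusted p = 0.0170) and Slc11a2 (-0.57, adjusted p = 4.66e-07) were lower at 7 h. The Ireb2 call was lost on the TPM scale (limma, adjusted p = 0.0870).

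With KCl, Slc40a1 had the widest gap between the times, at 2.79 (SE 0.17, adjusted p = 3.71e-09), and Ireb2 followed at 0.74 (SE 0.07, adjusted p = 3.95e-07). Blvrb was lower at 7 h (-0.47, adjusted p = 0.000976). Ftl1 (0.22, adjusted p = 0.00686) lost its call without the first replicate of 7 h of KCl (adjusted p = 0.0756). Slc11a2 (0.18, adjusted p = 0.0120) lost its call without the first 2 h replicate (0.0594), without the second 7 h replicate (0.0506) and in the fit of only the groups compared (0.0746). In translational efficiency the single contrast called was Ireb2 with H2O2, at 0.91 (SE 0.23, adjusted p = 0.0247).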

How the results depend on the processing

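Of 756 values that the alternatives gave for the 66 called results of the 9 genes, 688 kept direction and call, 67 lost the call and 1 reversed; 44 of the 66 were called in every setting. The reversed value was Aco1 RNA at 42 °C on the TPM scale (-0.057). The 756 values include the setting with ferritin copies summed, which could hardly move a value. The 94 uncalled results not printed here had 1248 values under alternatives: 30 became called, 84 changed sign without a call, 0 were called with the sign reversed, and 1134 stayed as they were. The values set out next were limited, after they were seen, to results the text prints. The causes of the changes were not tested, except where fewer libraries or groups enter a fit.

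The number of the 9 genes called at 44 °C in RNA was 5, with DESeq2 3 and with 1 library left out 3 to 6. For RNA of H2O2 against KCl at 2 h it was 5, and 3 to 4 with a library left out. In footprints at 2 h of H2O2 it was 1, with DESeq2 3, with no filter 2 and 1 to 3 with a library left out; at 7 h it was 2, and 1 to 2. In footprints at 7 h of KCl it was 0, with DESeq2, RLE factors or the replicate block 1, with no filter 2, with only the groups compared 3, and 0 to 1 with a library left out. For efficiency at 2 h of H2O2 it was 3, with only the groups compared 0, and 0 to 5 with a library left out. At 7 h of H2O2 it was 0, and 1 with DESeq2, RLE factors, no filter, voom or only the groups compared, and 0 to 2 with a library left out. At 7 h of KCl it was 0, and 1 with only the groups compared. For 7 h against 2 h of H2O2 it was 1, with DESeq2 2, with only the groups compared 0, and 0 to 5. For H2O2 against KCl at 2 h it was 1, with DESeq2 2 (Fth1 and Ireb2), with only the groups compared 0, and 1 to 3.

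Fth1 efficiency at 7 h of H2O2 was called with DESeq2 (-1.003), RLE factors (-1.003), no filter (-1.04), voom (-1.02) and only the groups compared (-0.997). The other alternatives did not call it. With only the groups compared, Fth1 (-1.25) and Tfrc (-1.04) lost their efficiency calls at 2 h of H2O2, and Fth1 gained one at 7 h of KCl (0.87). Leaving out 1 library put Fth1 at 2 h of H2O2 between -2.27 and -0.82, Tfrc there between -1.59 and -0.65 and Tfrc footprints there between -0.61 and 0.32. It put Ftl1 efficiency between -1.58 and -0.15 (H2O2, 2 h), -1.45 and 0.0092 (H2O2, 7 h), -0.35 and 1.09 (KCl, 2 h) and -0.77 and 0.67 (KCl, 7 h). Tfrc efficiency at 7 h of KCl was -0.015 with no filter and between -0.070 and 0.12 with a library left out. With CPM, which does not divide by length, the control ratio of Fth1 to Tfrc was 2.26 in RNA and 0.133 in footprints, and of Ftl1 to Tfrc 5.35 and 0.207; with TPM they were 13.0, 0.639, 29.8 and 0.986. Ferritin copies were taken by symbol, with 6 entries for Fth1 and 0 for Ftl1, and held 1 count in all RNA libraries. Summing them could therefore hardly change a value, and it did not test reads shared with pseudogenes.

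Same-numbered libraries did not deviate together in every pair of groups, so the numbers were not taken as pairs. The r ran from -0.025 to 0.117 over 3 pairs in heat and from -0.053 to 0.054 over 10 in RNA. In footprints it ran from -0.384 to 0.417 over 10 pairs, with 6 over 0.1 and 3 under -0.1. The main footprint fit leaves this structure out. The replicate block lost no printed call, and gained Fth1 footprints at 7 h of KCl (adjusted p = 0.0421), Hmox1 efficiency at 2 h of H2O2 (adjusted p = 0.0496) and Tfrc RNA at 44 °C (adjusted p = 0.00809). In footprints of 2 h of H2O2 and its control alone, 27 genes were called with no block, 112 with the block and 1332 with the numbers crossed, a pairing added after the data were seen.

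Counts over all genes moved by over 1.5 times as follows. In footprints at 2 h of H2O2 (201) they were 315 with no filter, 45 on TPM and 27 with only the groups compared; at 2 h of KCl (723) they were 477 on TPM and 463 with only the groups compared. Efficiency at 2 h of H2O2 (1199) gave 659 with voom and 600 with only the groups compared, and at 7 h (971) 642 with voom. Efficiency at 2 h of KCl (1337) gave 765 on TPM and 730 with voom, and at 7 h (584) 1078 with DESeq2, 247 on TPM and 221 with voom. For 7 h against 2 h, H2O2 (755) gave 1305 with DESeq2, 296 with voom and 322 with only the groups compared, and KCl (717) gave 1237, 298 and 445, with 427 on TPM. H2O2 against KCl gave at 2 h (514) 1054, 202 and 49, and at 7 h (1263) 728 with voom. On TPM the share of calls that were higher went from 49.8% to 23.6% at 42 °C, from 50.2% to 36.1% at 2 h of KCl and from 52.7% to 68.2% for H2O2 against KCl at 2 h in RNA. In footprints it went from 59.7% to 80.0% and 61.9% to 74.3% at 2 h and 7 h of H2O2. In efficiency it went from 50.7% to 73.0% at 7 h of H2O2, from 68.5% to 91.1% against 2 h, and for H2O2 against KCl from 60.5% to 42.6% at 2 h and to 74.2% at 7 h. TPM shifted the median log2 change of all genes by -0.15 at 42 °C, 0.10 in footprints and 0.16 in efficiency at 7 h of H2O2, 0.18 in efficiency of 7 h against 2 h of H2O2 and 0.11 for H2O2 against KCl at 7 h. Footprint counts on Slc40a1 were too few for a test.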
